A study of Mus musculus with 8 samples.

Results

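The 10 genes described here serve glutathione: Slc7a11 imports its precursor cystine, Gclc, Gclm and Gss make it, Gsr, Gpx1 and Gpx4 run its redox cycle, Chac1 and Ggct act in its breakdown, and Abcc1 exports it. They were chosen by symbol, with earlier results of these data known, and each had 1 row among the 54232 gene rows of the expression table. All 10 passed the filter on low values, so none drops out of the counts given for them. Glutathione is a tripeptide of glutamate, cysteine and glycine, and the supply of cysteine usually limits its synthesis. It reduces peroxides through the glutathione peroxidases, is exported from the cell with compounds joined to it, and is returned from its oxidised to its reduced form by glutathione reductase. Many of these genes are known targets of NRF2, the transcription factor of the antioxidant response, and Slc7a11 and Chac1 are also known to be induced by ATF4, a transcription factor that acts when amino acids run short or proteins misfold.

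RNA was sequenced from mouse cells of C57BL/6 background, 3 libraries of cells given C28 (named 028 in the sample titles) for 3 h and 3 libraries of cells given the solvent DMSO. C28 is a compound known here by its code name, with no dose in the labels, and no allele or other agent is named for either group. The H3K27ac lists, 1 C28 and 1 control library, were not used here. The RNA libraries held 16930212 to 19197376 recovered reads. The labels call the cells female germline stem cells, but of 8 germ cell markers 6 had fewer than 10 reads in all libraries together, among them Ddx4 with 4 reads, Dazl with 1 and Pou5f1 with 0. Of the same 8 markers, Ifitm3 had 1214 reads and Prdm1 had 25. The leukocyte markers Ptprc, Fcer1g, Coro1a and Laptm5 were abundant, with Ptprc averaging 7527 normalized counts. Their summed level was 19055 to 24927 normalized counts in C28 libraries and 18929 to 24151 in DMSO libraries. Only 3 germ cell, 4 leukocyte, 3 mast cell, 4 fibroblast and feeder, 1 ovarian somatic and 0 endothelial markers were tested. In limma 0 of these were called, also with the replicate number fitted as a block. Of all genes 0.121% rose and 0.0157% fell without that block, and 2.55% and 2.25% with it. The labels do not say whether the replicates were separate cultures, so p-values cover the variation among these libraries alone, and that variation may be technical. In bulk RNA, fewer cells of a type and less RNA per cell cannot be told apart.

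Start site windows of 300 bases, 250 before to 50 after the annotated start, matched 7 of the 10 members in RefSeq (GRCm38.p6), and not Gclc, Gsr and Abcc1. Windows are printed for the pair of members with the largest fold changes, Slc7a11 and Chac1, and for Gclm, which carries a match to the other motif searched. The Ggct window, with 2 matches to that other motif, is not printed. The Slc7a11 window lies at chr3:50443564-50443863 on the minus strand, the Chac1 window at chr2:119350992-119351291 on the plus strand and the Gclm window at chr3:122245307-122245606 on the plus strand. Capitals mark matches, on either strand, to TGATGNAA, a form of the composite element bound by ATF4 with C/EBP proteins, or to TGACNNNGC, the core of the antioxidant response element bound by NRF2 with small MAF proteins.
Slc7a11: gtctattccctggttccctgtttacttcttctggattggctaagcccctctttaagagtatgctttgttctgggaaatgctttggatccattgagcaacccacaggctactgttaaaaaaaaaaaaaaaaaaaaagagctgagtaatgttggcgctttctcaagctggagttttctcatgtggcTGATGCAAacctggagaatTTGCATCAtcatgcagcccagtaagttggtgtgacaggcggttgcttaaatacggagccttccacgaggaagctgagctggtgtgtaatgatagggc
Chac1: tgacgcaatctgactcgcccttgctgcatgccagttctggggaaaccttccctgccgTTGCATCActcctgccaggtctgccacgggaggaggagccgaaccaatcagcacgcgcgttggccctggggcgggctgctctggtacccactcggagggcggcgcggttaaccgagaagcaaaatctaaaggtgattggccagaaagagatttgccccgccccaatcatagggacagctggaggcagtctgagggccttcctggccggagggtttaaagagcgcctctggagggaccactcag
Gclm: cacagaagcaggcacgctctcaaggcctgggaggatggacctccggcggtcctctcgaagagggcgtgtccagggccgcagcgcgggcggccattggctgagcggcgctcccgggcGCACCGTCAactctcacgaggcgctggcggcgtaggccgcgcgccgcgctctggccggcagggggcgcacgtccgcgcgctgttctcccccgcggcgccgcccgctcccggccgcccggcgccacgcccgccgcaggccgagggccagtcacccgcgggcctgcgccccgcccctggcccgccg

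The Slc7a11 window held 2 matches to TGATGNAA, on opposite strands, that began 66 and 47 bases before the start site. The Chac1 window held 1, which began 193 bases before the start, on the minus strand. The windows of the other 5 matched members held none, and 4.51% of 27025 genes in the table had at least 1. TGACNNNGC was found in the Gclm window, 134 bases before the start on the minus strand, and at 2 places in the Ggct window. It was not in the windows of Slc7a11, Chac1, Gss, Gpx1 or Gpx4, which has 4 windows, and 14.0% of genes had it. No match of 1 motif overlapped a match of the other. These matches describe letters in a short window, and no binding was measured.

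**Figure D1:**
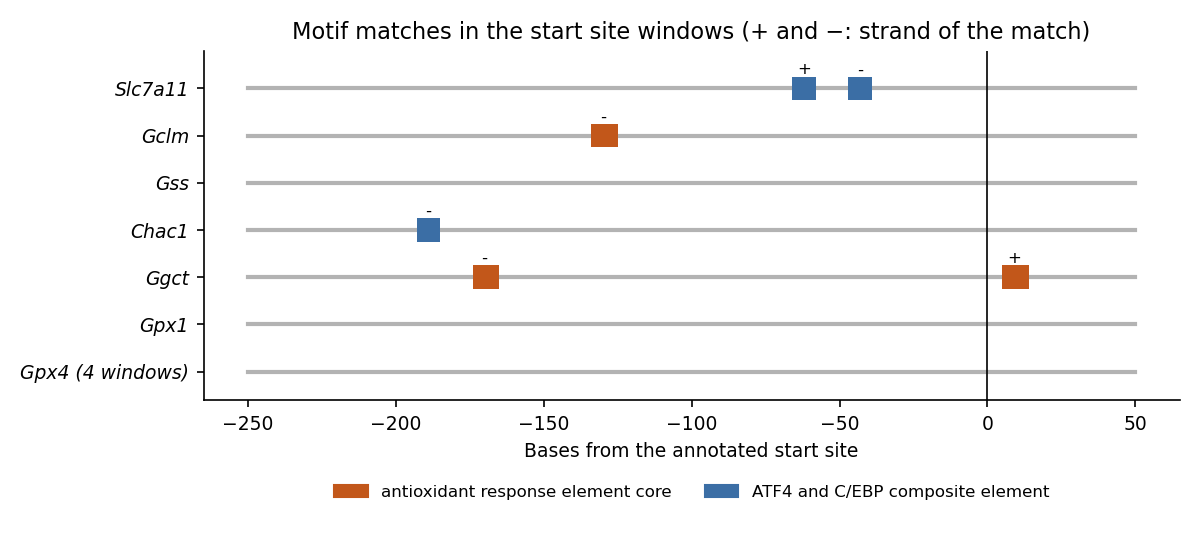
Matches to the antioxidant response element core (orange) and to the ATF4 and C/EBP composite element (blue) in the start site windows of 7 members, by distance in bases from the annotated start site (vertical line). The composite element appears in Slc7a11, with 2 matches, and in Chac1, with 1; the antioxidant core appears in Gclm and Ggct.

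The question is how the RNA of these genes after 3 h of C28 compared with that after DMSO. Chac1, of glutathione breakdown, and Slc7a11, of cystine import, had the largest fold changes of the 10, at 4.20-fold and 3.55-fold higher with C28. Both subunits of glutamate-cysteine ligase followed, Gclm at 1.90-fold and Gclc at 1.75-fold, then Gsr at 1.57-fold, Abcc1 at 1.42-fold and Gss at 1.32-fold. The peroxidases Gpx4 and Gpx1, at 1.07-fold and 0.941-fold, and Ggct, at 0.835-fold, completed the order. In limma without a replicate block 2 of the 10 rose, Gclc and Chac1, where 0.121% of the 19054 genes tested rose. No member fell, where 0.0157% of all genes did. In limma 1 member, Ggct, was lower at an unadjusted p under 0.05, where 647 of the 19054 genes were. Neither edgeR, where 0.131% of all genes rose and 0.0157% fell, nor DESeq2 called a member as lower.

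No label states pairs, but same-numbered libraries of the 2 groups deviated together in these same data. The replicate number was therefore also fitted as a block. In that fit 7 of the 10 rose, namely Chac1, Slc7a11, Gclm, Gclc, Gsr, Abcc1 and Gss, and 0 fell, where 2.55% of all genes rose and 2.25% fell. In those same 7 members all 3 C28 libraries lay above all 3 DMSO libraries, which 8.16% of all genes did, and in Ggct all 3 lay below, which 6.49% did. The median log2 fold change was 0.58 over the members and 0.00 over all genes. On recovered reads without the block DESeq2 called 5 members as higher, Slc7a11, Gclc, Gclm, Gsr and Chac1, where 0.635% of all genes rose and 0.32% fell. With the block edgeR called the same 7 as limma, where 3.71% of all genes rose and 3.28% fell. In limma the blocked count of 7 fell to 4 with pair 2 left out, when Gsr, Abcc1 and Gss were lost and 0.22% of all genes rose. It fell to 6 with pair 3 left out, when Gss was lost and 0.745% of all genes rose.

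**Figure D2:**
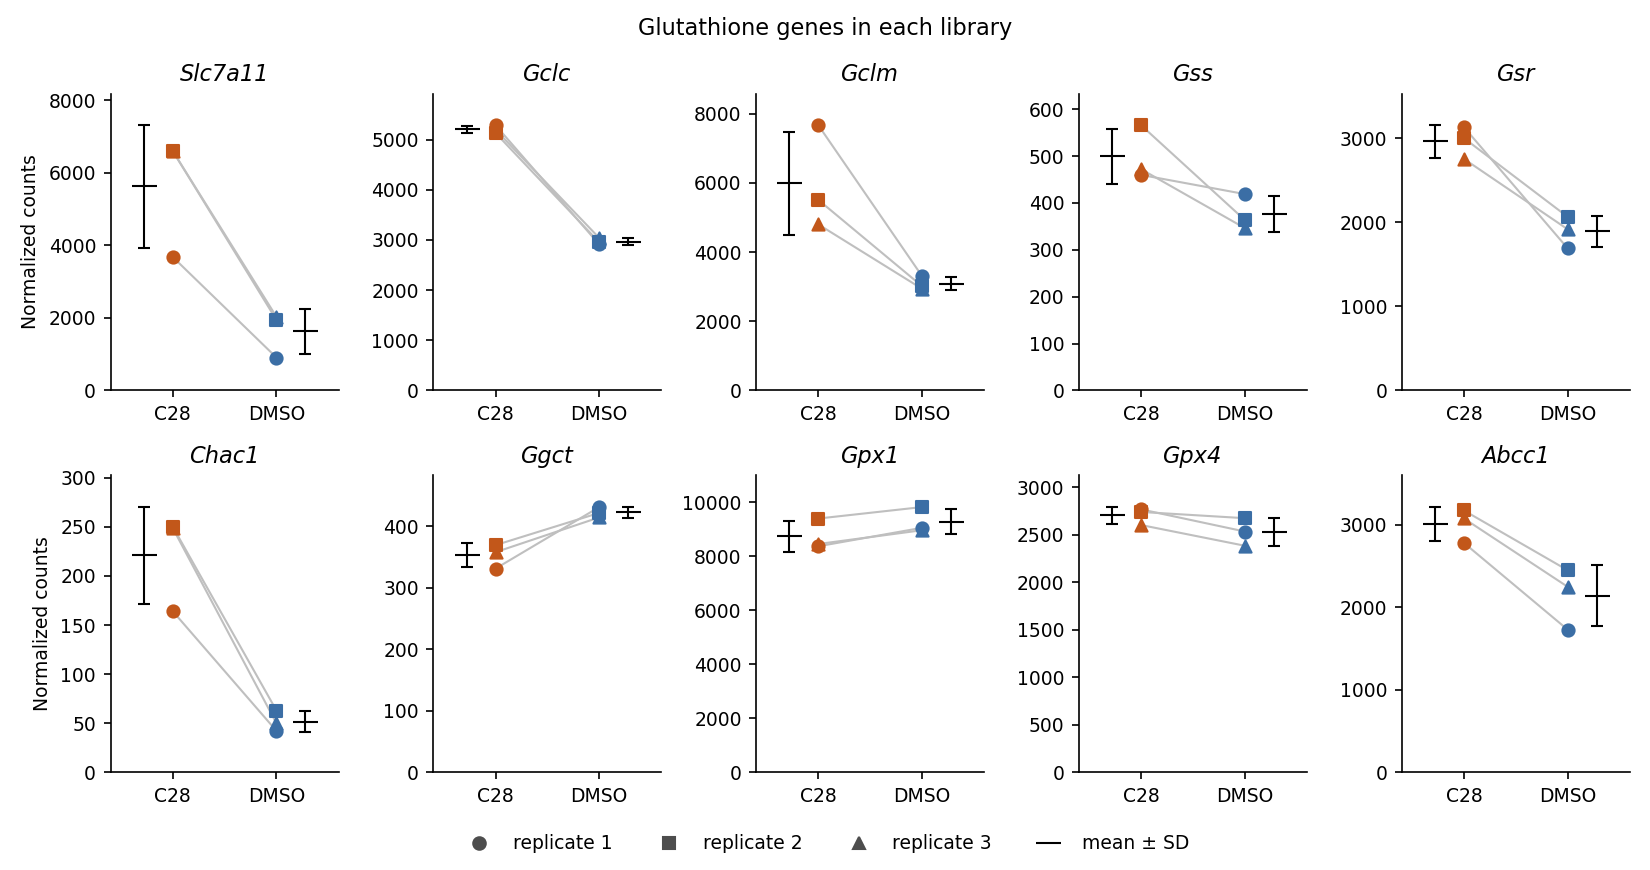
Normalized counts of the 10 members in each library (axes start at 0), with C28 left of DMSO, symbols for replicate numbers, grey lines joining same-numbered libraries and black bars for the mean ± SD of 3 libraries. The groups do not overlap in 8 members; in Slc7a11, replicate 1 is the lowest library of both groups.

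Slc7a11 encodes the light chain of system xc-, which brings cystine into the cell in exchange for glutamate. It had 3673, 6593 and 6589.6 normalized counts in C28 replicates 1 to 3, against 905, 1941 and 2028 in DMSO replicates 1 to 3. Every C28 library was above every DMSO library, and replicate 1 was low in both groups, at 0.557 of the geometric mean of replicates 2 and 3 with C28 and 0.456 with DMSO. Within same-numbered pairs the fold was 4.06, 3.40 and 3.25. The log2 fold change was 1.83 with an SE of 0.35 without the block, where it was not called (adjusted p 0.172, limma with Benjamini-Hochberg adjustment over 19054 genes). With the block the SE was 0.06 and Slc7a11 rose (limma adjusted p 2.02e-07), with the second smallest p of all genes. With replicate 1 left out of both groups it also rose without a block (log2 fold change 1.73, limma adjusted p 0.000176). Its partner Slc3a2, the heavy chain that carries the transporter to the membrane, is given among the pathway genes.

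Glutamate-cysteine ligase joins glutamate to cysteine, the first step of synthesis; Gclc encodes its catalytic subunit and Gclm the modifier subunit that raises its activity. Gclc had 5287, 5133 and 5196 normalized counts in the C28 libraries, against 2910.3, 2953 and 3040.03 in the DMSO libraries. Both groups were tight, and the gap between them was many times the SD of either, 77.6 with C28 and 66.2 with DMSO (n = 3 each). Gclc rose with a log2 fold change of 0.81 ± 0.06 (SE, limma adjusted p 0.00416) and with the block (limma adjusted p 5.36e-06). The call was lost without C28 replicate 2 (limma adjusted p 0.0676), although the log2 fold change was then 0.82.

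Gclm had 7665, 5507 and 4799 normalized counts in C28 replicates 1 to 3, against 3307, 3015 and 2939 in DMSO replicates 1 to 3. All C28 libraries were above all DMSO libraries, and C28 replicate 1 stood above the other two. The log2 fold change was 0.93 ± 0.16 (SE), not called without the block (limma adjusted p 0.136) and called with it (0.000111). The log2 ratio of Gclc to Gclm in a library, which is free of the library's scaling, was -0.54, -0.10 and 0.11 with C28 and -0.18, -0.03 and 0.05 with DMSO. The groups overlapped, and the mean difference of -0.12 (C28 minus DMSO) had an exact two-sided permutation p of 0.7, where the smallest p that 20 splits allow is 0.1. The sign of this difference turned without C28 replicate 1 (0.06).

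Gss encodes glutathione synthetase, which adds glycine in the second step. It had 459.7, 566 and 472 normalized counts in the C28 libraries, against 419, 363 and 346 in the DMSO libraries. The groups did not overlap, but the fold was uneven between pairs, at 1.10 in pair 1, 1.55 in pair 2 and 1.36 in pair 3. The log2 fold change was 0.41 (95% confidence interval 0.12 to 0.69 before adjustment, limma adjusted p 0.454), and with the block Gss rose (limma adjusted p 0.0407). Among the blocked calls of the members it was the one nearest the threshold. The authors' deposited table did not call it either (adjusted p 0.233).

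Gsr encodes glutathione reductase, which uses NADPH to reduce oxidised glutathione. It had 3131, 3000.3 and 2754 normalized counts in the C28 libraries, against 1691, 2065 and 1917 in the DMSO libraries. The lowest C28 library was above the highest DMSO library. The log2 fold change was 0.65 ± 0.09 (SE), short of the threshold without the block (limma adjusted p 0.072) and past it with the block (0.000543).

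Gpx1 and Gpx4 encode selenoproteins that use glutathione to reduce peroxides; Gpx4 acts on lipid peroxides in membranes and opposes ferroptosis, an iron-dependent form of cell death. Gpx1 had 8369.9, 9397 and 8453 normalized counts in the C28 libraries, against 9054, 9822 and 8964 in the DMSO libraries. The groups overlapped, and the log2 fold change of -0.09 had a 95% confidence interval from -0.25 to 0.08 (limma adjusted p 0.87, and 0.284 with the block). Gpx4 had 2766, 2739.6 and 2602 normalized counts with C28, against 2534, 2674 and 2384 with DMSO. Its groups overlapped too, with a log2 fold change of 0.10 and an interval from -0.06 to 0.26 (limma adjusted p 0.836, and 0.321 with the block). Both intervals lie below the log2 fold change of 0.65 of Gsr; the difference between members was not tested.

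Chac1 encodes a cytosolic enzyme that splits reduced glutathione into 5-oxoproline and cysteinylglycine. It had 164, 250.03 and 249 normalized counts in C28 replicates 1 to 3, against 42.1, 62.8 and 49.7 in DMSO replicates 1 to 3. These stand for 158, 233 and 242 reads with C28 and 45, 66 and 52 reads with DMSO, the fewest of any member. The groups were far apart, and replicate 1 was the lowest library of each. Chac1 rose with a log2 fold change of 2.07 ± 0.23 (SE, limma adjusted p 0.0333) and with the block (limma adjusted p 3.92e-05), and the fold in the 3 pairs was 3.83, 3.93 and 4.92. Without the block the call was lost when any library other than C28 replicate 1 was left out, with limma adjusted p of 0.109 (DMSO replicate 2), 0.114 (DMSO replicate 1), 0.196 (DMSO replicate 3), 0.227 (C28 replicate 3) and 0.337 (C28 replicate 2), and over all 6 omissions the log2 fold change lay between 1.94 and 2.27.

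Ggct encodes gamma-glutamylcyclotransferase, which frees 5-oxoproline from gamma-glutamyl amino acids. It had 331, 369 and 358 normalized counts in the C28 libraries, against 431, 422 and 414 in the DMSO libraries. It was the one member with every C28 library below every DMSO library. The log2 fold change of -0.26 (95% confidence interval -0.48 to -0.05 before adjustment) was not called over all genes (by limma, adjusted p 0.541, and 0.108 in the blocked fit). Across the 21 alternatives its log2 fold change lay between -0.30 and -0.20 and was called in 0 of them.

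Abcc1 encodes the multidrug resistance protein MRP1, which exports glutathione and compounds joined to it. It had 2778, 3171 and 3074 normalized counts in C28 replicates 1 to 3, against 1728, 2447 and 2247 in DMSO replicates 1 to 3. The groups did not overlap, and replicate 1 was the lowest library of each. The log2 fold change was 0.50 ± 0.13 (SE), not called without the block (limma adjusted p 0.353) and called with it (0.00116).

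**Figure D3:**
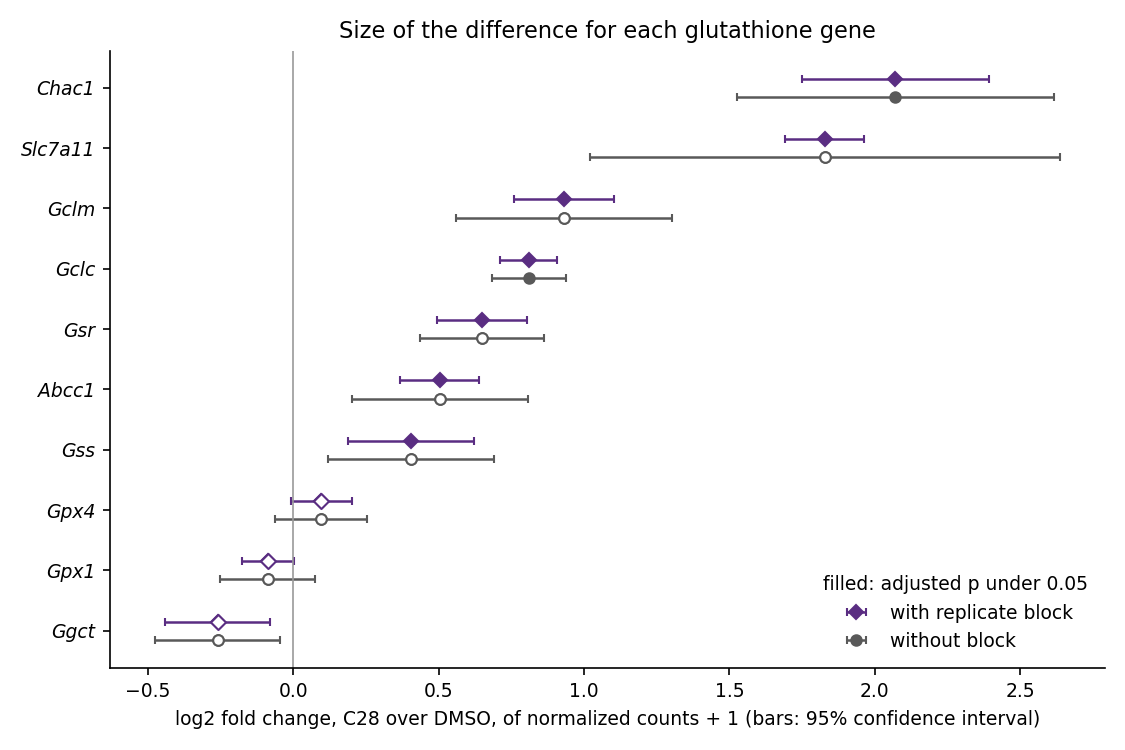
Log2 fold change of C28 over DMSO for the 10 members with 95% confidence intervals, with the replicate block (diamonds) and without it (circles); filled symbols have an adjusted p under 0.05. The block narrows the interval most for Slc7a11, and Gpx4, Gpx1 and Ggct stay unfilled in both fits.

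The order of the fold changes was set against their error. Without the block every pair of neighbours in the order had overlapping 95% confidence intervals, among them Slc7a11 (1.02 to 2.64) and Gclm (0.56 to 1.30). Slc7a11 and Chac1 stood at 1.83 and 2.07 on the log2 scale, and in the blocked fit their lower bounds, 1.69 and 1.75, lay above the upper bounds of all other members, the next being 1.10 for Gclm. No test between members was run beyond the ligase subunits. Only 0.147% of all genes had a higher log2 fold change than Chac1, 0.231% than Slc7a11, 3.85% than Gclm and 13.4% than Gss.

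Replicates differed widely for some members and little for others. Slc7a11, Chac1 and Abcc1 were lowest in replicate 1 of both groups, whereas Gclm was highest there, with C28 replicate 1 at 1.49 and DMSO replicate 1 at 1.11 of the geometric mean of the other two. Gclc varied little, at 1.02 and 0.971. Marker levels moved with replicate 1 as well: the 5 fibroblast and feeder markers summed to 972 normalized counts in C28 replicate 1 and 927 in DMSO replicate 1, against 1384 to 2359 in the other 4 libraries. Most of these sums came from Dcn, with 873 in C28 replicate 1 and 829 in DMSO replicate 1. Col1a1 and Col1a2 were also lowest in replicate 1 of both groups, while Col3a1, with 25 reads in all, was highest there with C28, and Lum had 2 reads. The 4 leukocyte markers summed to 24927 in C28 replicate 1 and 24151 in DMSO replicate 1, against 18929 to 19208 in the others. The 6 mast cell markers summed to 5070.1 in C28 replicate 1 and 5598 in DMSO replicate 1, against 6619.6 to 8537 in the others, almost all from Cpa3, while Fcer1a and Tpsb2 had 0 reads. The part of cell make-up in the replicate difference was not tested. With replicate 1 left out of both groups and no block, limma called 5 members as higher, Slc7a11, Gclc, Gclm, Gsr and Chac1, where 0.341% of all genes rose and 0.136% fell.

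Other genes of the pathway were taken from a list of 74, of which 53 passed the filter on low values; all 74 had a row, and 8 had 0 reads. Without the block 1 of the 53 rose and 0 fell, where 0.121% of all genes rose and 0.0157% fell. With it 5 rose and 2 fell, where 2.55% of all genes rose and 2.25% fell, and the counts by role given next stand against these same shares. Their median log2 fold change was 0.01, against 0.58 for the members and 0.00 for all genes. Taken unadjusted, p was under 0.05 for 3 list genes that lay higher and 2 that lay lower by limma without the block. Of all 19054 genes tested, 844 lay higher and 647 lower at that p. Without the block edgeR and DESeq2 called 0 as lower, and with it edgeR called 2.

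In the cysteine supply group, 2 of 8 tested genes rose and 1 fell with the block, and 0 were called without it (limma), where 1 had an unadjusted p under 0.05. Slc1a4 encodes ASCT1, an exchanger of small neutral amino acids that include cysteine. It had 1604, 2246 and 2141 normalized counts in the C28 libraries, against 837, 1012 and 959 in the DMSO libraries, with no overlap (2.12-fold, limma adjusted p 0.0515, and 5.68e-06 with the block). Slc3a2, the heavy chain partner of Slc7a11, had 7938, 11613 and 11441 with C28, against 7314, 9859.95 and 9537 with DMSO. Those groups overlapped, and Slc3a2 was 1.15-fold higher (limma adjusted p 0.877, and 0.0234 with the block), far less than Slc7a11 at 3.55-fold, a difference that was not tested. Mat2a, which makes S-adenosylmethionine upstream of transsulfuration, fell with the block to 0.869-fold (limma adjusted p 0.0166). The transsulfuration genes were scarce: Cbs had 1 read in all 6 libraries and Cth averaged 3.49 normalized counts with C28 and 3.15 with DMSO.

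Thiol exchange and aldehyde detoxification held the only list gene called in both fits, Esd, which hydrolyses S-formylglutathione. It had 4038, 3936 and 3761 normalized counts in the C28 libraries, against 2685, 2650.1 and 2807 in the DMSO libraries. The groups were clearly apart, and Esd rose 1.44-fold (limma adjusted p 0.0348, and 0.000246 with the block). The unblocked call was lost whichever library was left out, with limma adjusted p from 0.0597 without C28 replicate 1 to 0.324 without C28 replicate 2. The other 8 genes of that group, glutaredoxins and glyoxalases among them, were not called in either fit, with log2 fold changes from -0.10 to 0.02. Among 9 genes of export and mitochondrial import, Abcc5, a multidrug resistance protein related to Abcc1, had 1144, 1020.5 and 985 normalized counts with C28, against 688, 614 and 705 with DMSO. It did not overlap between groups and rose with the block (1.57-fold, limma adjusted p 0.000534, and 0.072 without). In 3 others of these 9 all C28 libraries lay below all DMSO libraries, and none was called in either fit. They were the mitochondrial carriers Slc25a10 (0.846-fold) and Slc25a11 (0.878-fold), both at an unadjusted limma p under 0.05, and Abcc2, with 11 reads in all. Over the 53 tested list genes 3 lay wholly above and 3 wholly below, where 8.16% and 6.49% of all genes did.

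Of 17 tested glutathione transferases 1 rose with the block, Gstm1, and 0 were called without it (limma), where 0 had an unadjusted p under 0.05 either. Gstm1 had 140.1, 958 and 731 normalized counts in C28 replicates 1 to 3, against 112, 720.3 and 618 in DMSO replicates 1 to 3. Replicate 1 was at 0.168 of the other two with C28 and 0.169 with DMSO, a far wider gap than the 1.25-fold between groups (by limma, adjusted p 0.0403 in the blocked fit and 0.986 in the other). Reads of the Gstm and Gstp families may be shared between near-identical copies, so values of single genes there are uncertain. Of 7 tested breakdown genes 1 fell with the block, Cndp2, a dipeptidase that splits cysteinylglycine (0.876-fold; by limma, adjusted p 0.041 in the blocked fit and 0.978 in the other). Cndp2 was also low in replicate 1, at 0.436 of the other two with C28 and 0.439 with DMSO. The 3 tested peroxidases of the list were not called, and the most abundant, Prdx6, averaged 4081 ± 624 normalized counts with C28 and 4052 ± 486 with DMSO (SD, n = 3 each). Gpx8 averaged 67.8 with C28 and 60.2 with DMSO. With the block and pair 2 left out, Slc1a4 alone of the 7 called list genes was still called in limma (adjusted p 0.0102); with pair 3 left out, Slc1a4, Esd and Abcc5 were.

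**Figure D4:**
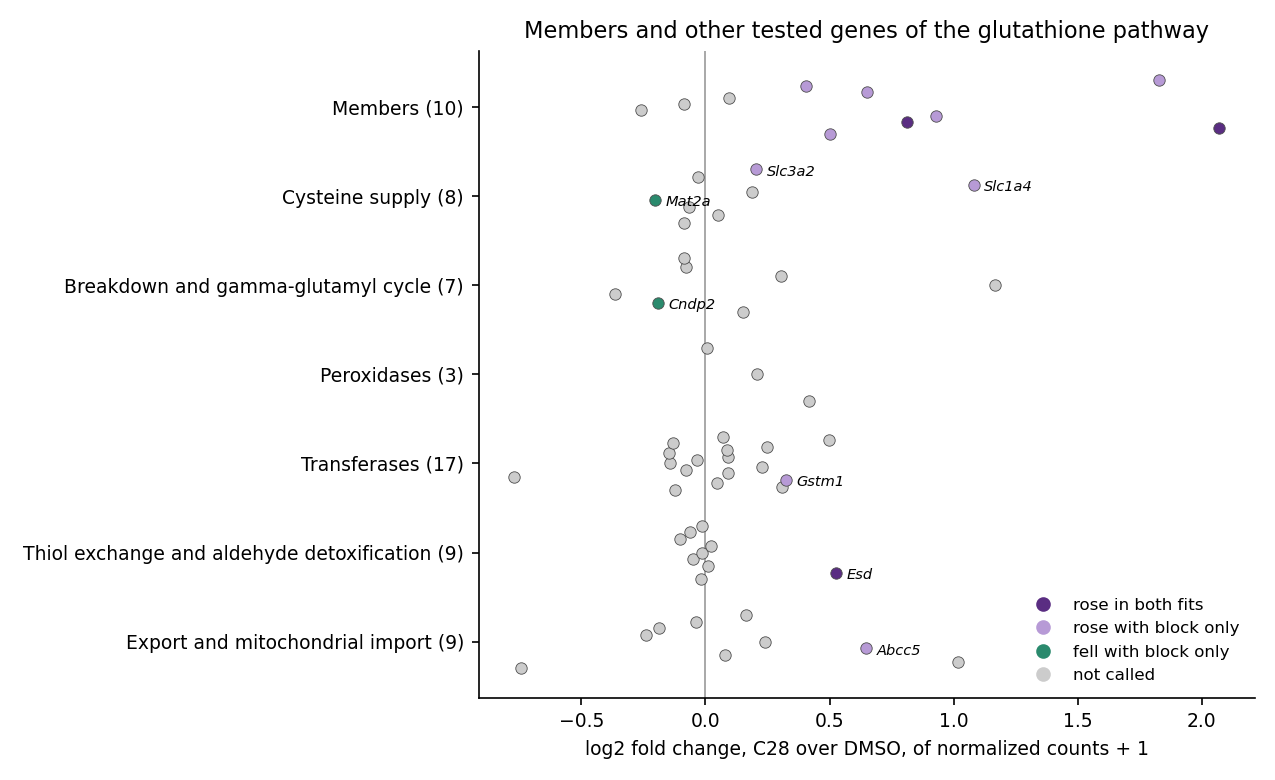
Log2 fold change of C28 over DMSO without the block for the 10 members and the 53 other tested pathway genes, 1 point a gene, by role (number of genes in brackets), coloured by call at an adjusted p under 0.05. Of the 53, Esd rose in both fits; Slc1a4, Slc3a2, Gstm1 and Abcc5 rose and Mat2a and Cndp2 fell with the block.

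The genes of most similar pattern were sought for 3 members among 9676 genes averaging at least 100 normalized counts, by the root mean square difference of centred log2 values over the 6 libraries. For Slc7a11 the nearest were Chac1 (0.31), Trib3 (0.38), a pseudokinase, and Nqo1 (0.44), a quinone reductase. For Chac1 they were Trib3 (0.15), Slc7a11 (0.31) and Slc6a9 (0.43), a glycine transporter. Trib3 had 1125, 1633 and 1230.3 normalized counts with C28, against 251, 354 and 289 with DMSO, so it too was lowest in replicate 1 of both groups. Among the nearest to Gclc were Banp (0.10), a DNA-binding protein, and Cat (0.10), the catalase that breaks down hydrogen peroxide. Cat had 2859, 3251 and 2973 normalized counts with C28, against 1556, 1866 and 1873 with DMSO. Likeness over 6 libraries mixes the treatment with the replicate difference.

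The authors' deposited table gave log2 fold changes of C28 over DMSO of the same sign as the estimates above for all 10 members, but nearer to 0. For Slc7a11 the authors' deposited table gave 0.49 with an adjusted p of 0.0111, against 1.83 here, and for Chac1 it gave 1.09 with an adjusted p of 5.37e-12. DESeq2 on recovered reads gave 1.79 for Slc7a11 (adjusted p 0.00655). The deposited 0.49 is thus not a plain log2 ratio of its group means, 5619 with C28 and 1625 with DMSO. Why the deposited values lie nearer to 0 was not tested. For Gclc the authors' deposited table gave 0.76 (adjusted p 6.21e-24). In the authors' deposited table Slc7a11 thus ranked below Chac1, Gclc, Gclm (0.70) and Gsr (0.56) by log2 fold change, although its group means differed more than those of Gclc, Gclm and Gsr. At an adjusted p under 0.05 the authors' deposited table called 6 members, these 5 and Abcc1 (adjusted p 0.0494), all higher with C28. The share of all genes called there was not counted, so this number has no background beside it.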

How the data were processed

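RNA was measured in 3 C28 and 3 DMSO libraries, grouped by sample title. The submitters' processing notes name the build mm9 and the tools Cufflinks 2.2.1 and Bowtie2 without their roles. How reads were counted, and whether by strand, is not given in the sources used here; a gene and an overlapping antisense gene may therefore share reads. The deposited values are on a signal scale, read counts that the authors divided by 1 size factor per library: 100% of values divide into whole reads, with a tolerance of 0.01, by the library's value of 1 read (0.935 to 1.07). The deposited table also holds the authors' log2 fold change and adjusted p-value. The test on whole recovered reads was an alternative: edgeR's quasi-likelihood test called 28 genes and DESeq2 182.

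Of rows sharing a name, the most abundant was kept. The filter, 1 or more in 3 or more libraries, left 19054 genes. limma 3.58.1 (R 4.3.3) was run on log2(value + 1), with an intensity trend, Benjamini-Hochberg adjustment and a threshold of 0.05; this scale understates changes of low genes. Alternatives used edgeR 4.0.16 and DESeq2 1.42.0. The scripts were tested on simulated data. The simulation held no difference shared by same-numbered libraries, so it could not check the block against the replicate difference seen here.

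Over 10572 genes averaging at least 50, deviations from the group means correlated between same-numbered libraries at 0.84, 0.68 and 0.71, so the numbers were taken as pairs from the data; no label states it. Replicate 1 stood apart in both groups, which raises these values for replicates 2 and 3. Between C28 replicate 2 and DMSO replicate 3 the correlation was 0.41, and between C28 replicate 3 and DMSO replicate 2 it was 0.54.

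The members and lists were chosen with earlier results of these data known. All members are named; other pathway genes are named where called in either fit, or else the 2 most abundant tested genes of their group. Other genes and values named as read counts or replicate differences were chosen after their values were seen. One gene named by the rule on similar patterns is not reported here. Peak lists are on mm9, with no annotation of that build at hand, and were not used here. Read counts cover counting error only.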

Additional observations from a re-analysis of the deposited data

How the results depend on the processing

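Directions of all 10 members held in all 21 alternatives; of 210 member results 176 kept their side of the threshold, 27 passed it newly and 7 lost it. The main counts were 23 genes rose and 3 fell, with 2 members and 1 other pathway gene among those that rose. DESeq2 gave 121 and 61 genes, 5 members and 3 pathway genes, and limma without a trend 46 and 5 genes, 1 member and 0 pathway genes (3 at an unadjusted p under 0.05). The replicate block gave 485 and 429 genes, 7 members, and 5 pathway genes that rose and 2 that fell; edgeR with the replicate block gave 707 and 625 genes, 7 members, and 5 and 2 pathway genes. With the block and pair 1 left out these were 438 and 415 genes, 7 members, and 5 and 2 pathway genes; with pair 2 left out 42 and 8 genes and 4 members; with pair 3 left out 142 and 65 genes, 6 members and 3 pathway genes. Without replicate 1 in both groups and with no block, an alternative chosen after seeing the data as was edgeR with the block, 65 and 26 genes, 5 members and 2 pathway genes were called. A pseudocount of 5, no filter, a filter of at least 10 and edgeR each gave 2 pathway genes. Leaving out 1 library at a time gave 0 to 21 genes that rose, 0 to 2 that fell, 0 to 2 members and 0 to 1 pathway genes; in limma no gene and no member rose without C28 replicate 2 (645 genes and 7 members lay higher at an unadjusted p under 0.05). In all omissions but that of C28 replicate 1, 0 genes fell (370 to 640 lay lower at that p) and 0 pathway genes rose (3 to 4 lay higher at that p). The Gclc to Gclm difference ranged from -0.26 to 0.06 and turned sign without C28 replicate 1 (0.062); its sign-flip test over replicate pairs gave an exact p of 0.5, with 0.25 the smallest possible. The causes were not tested. Peak alternatives were not run, since no peak could be assigned to a gene.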
